A study of Mus musculus with 20 samples.

Results

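The comparison described here set hypothalamus from diet-induced obese mice 1 day after celastrol against hypothalamus 1 day after vehicle. It used 7 of the 20 arrays of the series, 4 with celastrol and 3 with DMSO, and every gene that had a probe set with exactly 1 gene symbol. There were 18704 such genes, each read from its brightest probe set. Of these, 14129 were tested and 4575 were left out as dim, below a log2 intensity of 7.04. All mice were C57BL/6J males that started a 45% fat diet at 4 weeks of age and stayed on it for 16 weeks, and no lean or untreated mice were among the groups. The celastrol group received celastrol, a triterpenoid of the thunder god vine, into the peritoneum, dissolved in DMSO. The control group received DMSO, the solvent, at 25 µl per day by the same route. The labels print a celastrol dose of 250 µg/kg next to the 6 h time and repeat none for 1 day. Arrays within a group are labelled biological replicates, with no word on whether each came from 1 mouse.

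The hypothalamus sets food intake, energy use and the stress axis. Leptin from fat tissue acts there on neurons that release Pomc-derived peptides, which signal satiety through the melanocortin receptor Mc4r, and on neurons that release Npy, which drive feeding. Celastrol lowers food intake in obese mice. Glucocorticoids, the adrenal hormones at the end of the stress axis, act on neurons, glia and vessels through a nuclear receptor that switches on a well-known set of genes, several of which hold back inflammation.

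Markers of the labelled tissue gave signal on the arrays. All 24 hypothalamic markers on the table passed the filter on dim genes, as did 14129 of all 18704 genes. Of the 24, 7 lay at or above the 90th percentile of genes, among them the peptide genes Pmch, Sst, Hcrt and Oxt. Others lay low, such as Crh (percentile 27.9), Rax (31.7) and Kiss1 (36.6). No other tissue was compared, so the label was not tested. Values are log2 RMA intensities, so 1 unit is a factor of 2. Probe sets differ in brightness, so these percentiles describe signal on the arrays and do not rank the amounts of RNA of different genes. A principal component of the deviations from group means set 2 arrays apart. DMSO replicate 3 of 1 day scored 9.61 on it and DMSO replicate 3 of 6 h 11.4, while the other 18 arrays lay between -6.13 and 5.32. The labels give no array batch or date.

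In all, 60 of the 14129 tested genes (0.425%) passed a limma adjusted p of 0.05 at 1 day. Of these, 51 (0.361%) were higher and 9 (0.0637%) were lower in celastrol hypothalamus. Changes were small. Only 16 of the genes that rose and 1 that fell differed at least 1.5-fold, and 5 that rose reached 2-fold, namely Ch25h, Osmr, Scgb3a1, Sgk1 and Ptgs2. The median log2 difference, celastrol minus DMSO, was 0.46 over the genes that rose and -0.30 over those that fell, beside 0.0063 over all tested genes. In each of the 60 genes the 4 celastrol arrays lay wholly on one side of the 3 DMSO arrays, which held for 7.81% of all tested genes (4.69% higher and 3.13% lower). Just inside the threshold were Serpina3n, Rsrp1 and Sox9, with adjusted p of 0.0456 for the first pair and 0.0478 for Sox9. Just outside were Grm3 (-0.23, limma adjusted p = 0.0519), Arc (-0.24, adjusted p = 0.0534) and Herpud1 (0.24, adjusted p = 0.0536). The names of the 60 genes are given in the groups that follow, except 1 predicted gene. The groups were drawn up by known role after the genes had been seen, and lists were written with earlier results of these arrays known.

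**Figure D1:**
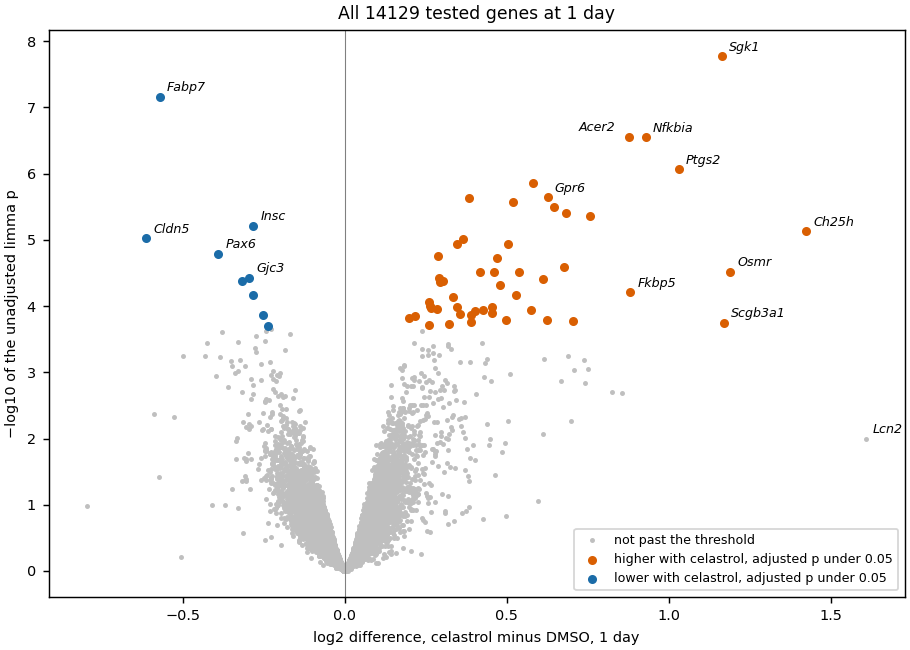
Each point is 1 of the 14129 tested genes, with the log2 difference between celastrol and DMSO arrays of 1 day on the x axis and −log10 of the unadjusted limma p on the y axis. Orange points are the 51 genes higher and blue points the 9 genes lower with celastrol at an adjusted p under 0.05, and Lcn2 is named as the gene with the largest difference, 1.61, which did not pass.

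Many calls did not hold without 1 array. Of 59 named genes, 12 stayed past the threshold in all 20 fits that left out 1 array, namely Sgk1, Fabp7, Acer2, Nfkbia, Ptgs2, Srarp, Gpr6, Usp2, F3, Tgm2, Ddit4 and Plekhf1. Of the 59 calls, 17 stayed without DMSO replicate 1 of 1 day, 18 without DMSO replicate 2 and 20 without DMSO replicate 3. Without celastrol replicates 1, 2, 3 and 4 of 1 day, 41, 30, 25 and 35 stayed in that order. In the paragraphs that follow, a gene not among the 12 is one whose call ended in at least 1 of these fits.

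Genes that glucocorticoids switch on made up the largest block. Of 31 tested genes on a list of such genes, 29 were higher with celastrol (53.8% of all genes were), 17 passed upward and none downward. The list median was 0.53, against 0.0063 over all genes, and 54.8% of the list passed upward against 0.361% of all genes. The list was written with earlier results of these arrays known, so this share is not independent evidence of its direction. Without the DMSO array of 1 day that stood apart, 8 of the 31 passed with a median of 0.53, and without DMSO replicates 1 and 2 it was 8 and 7. Sgk1, a kinase that promotes sodium channel and glucose transporter activity, had the smallest p of all genes. Sgk1 read 10.66, 10.71, 10.72 and 10.60 on the celastrol arrays, against 9.58, 9.68 and 9.26 on the DMSO arrays. Celastrol arrays differed among themselves far less than DMSO arrays did, with SDs of 0.055 (n = 4) and 0.22 (n = 3), and lay 0.91 above the highest DMSO array. The difference was 1.16 ± 0.125 (SE), or 2.24-fold (limma adjusted p = 0.000236).

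Nfkbia encodes the inhibitor that keeps NF-kB, the main transcription factor of inflammation, in the cytoplasm. Its levels were 9.84, 10.00, 10.18 and 9.88 with celastrol, against 9.10, 9.12 and 8.92 with DMSO, a gap of 0.73 between the closest arrays. Nfkbia rose by 0.93 ± 0.12 (limma adjusted p = 0.000986). Ddit4, which restrains the growth kinase mTOR, rose by 0.68 ± 0.106, to 9.89, 9.97, 10.12 and 9.96 on the celastrol arrays, against 9.29, 9.34 and 9.28 on the DMSO arrays (limma adjusted p = 0.005). Fkbp5, a co-chaperone that lowers the hormone affinity of the glucocorticoid receptor, read 9.46, 9.62, 9.77 and 9.49 with celastrol, against 8.66, 8.72 and 8.73 with DMSO. All celastrol arrays lay well clear of the DMSO arrays for Fkbp5, and the rise was 0.88 ± 0.172 (limma adjusted p = 0.0256). Leaving out any 1 of the 3 DMSO arrays, or celastrol replicate 2 or 3, ended the Fkbp5 call (up to 0.143). Tsc22d3, the glucocorticoid-induced leucine zipper that dampens inflammatory signals, rose by 0.61 ± 0.115 (limma adjusted p = 0.0192). Tsc22d3 stayed past the threshold in 16 of 20 fits without 1 array (up to 0.141).

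Of the other glucocorticoid-responsive genes, Plekhf1, an endosomal adaptor, rose by 0.76 ± 0.119, with arrays at 8.75, 8.87, 8.95 and 8.61 with celastrol, against 8.07, 8.01 and 8.03 with DMSO (limma adjusted p = 0.00511). Arrdc2, an arrestin-related adaptor, was tight in both groups, at 8.71, 8.77, 8.69 and 8.74 with celastrol, against 8.14, 8.05 and 7.96 with DMSO. Tgm2, transglutaminase 2, which cross-links proteins, rose by 0.64 ± 0.0991, with celastrol replicate 1 at 9.13 below the other celastrol arrays at 9.37 to 9.39 and DMSO arrays at 8.66 to 8.69 (limma adjusted p = 0.00452). Sult1a1, a sulfotransferase for phenols and catechols, varied between celastrol arrays, at 8.91, 9.31, 9.08 and 8.80, against 8.23, 8.45 and 8.28 with DMSO. Smaller rises were those of Hif3a, a relative of the oxygen-sensing factor Hif1a (0.62), Errfi1, a feedback inhibitor of the EGF receptor (0.53), and Bcl6, a transcriptional repressor of immune genes (0.50). Rasd1, a small G protein named for its induction by dexamethasone (0.36), Klf9, a zinc finger factor also induced by thyroid hormone (0.35), and Per1, a clock component (0.29), rose too. The limma adjusted p of Arrdc2, Sult1a1 and these 6 genes ran from 0.00857 for Rasd1 to 0.0425 for Sult1a1. The call of Arrdc2 ended without any 1 of the 3 DMSO arrays (up to 0.0716), those of Hif3a and Sult1a1 stayed in only 6 and 7 of 20 fits, and those of Rasd1 and Bcl6 ended only without DMSO replicate 2 of 1 day, at 0.0568 and 0.0685. Without 1 array the highest adjusted p was 0.229 for Hif3a, 0.243 for Sult1a1, 0.153 for Errfi1, 0.163 for Klf9 and 0.0807 for Per1. Pdk4, which switches mitochondria from glucose to fat, belongs to the same list and had arrays apart at 9.75, 9.63, 9.82 and 9.63 with celastrol, against 8.93, 8.87 and 9.11 with DMSO, yet did not pass (0.74, limma adjusted p = 0.1).

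Promoters were searched for 4 motifs, chosen after the called genes had been seen, so their shares among those genes are a description. Each window held the 250 bases before and 50 bases after a start in the RefSeq promoter set (GRCm38.p6). At least 1 window was present for 50 of the 60 called genes and 11309 of all tested genes. A gene counted once if any of its windows matched. The motifs were a glucocorticoid response element (GNACA and TGTNC, 3 bases apart), 1 arm of it in its common form (AGAACA), a kappaB site (GGGA and TTCC, 2 bases apart) and a cyclic AMP response element (TGACGTCA). Both strands were searched, and the arm may lie within a full element. The full glucocorticoid element was found in 2 of the 50 called genes (4%), Sgk1 and Serpina3n, and in 0.407% of all tested genes with a window. The arm was found in 8 (16%) and in 15.1% of all. The kappaB site was found in 2 (4%), Nfkbia and Ada, against 1.57% of all. The cyclic AMP element was found in 6 (12%), namely Ch25h, Gpr6, Dio2, Errfi1, Creb5 and Pax6, against 3.32% of all. A match describes letters in the window and not binding. The Sgk1 and Nfkbia promoters are shown because each holds a full element and its gene kept its call in all fits without 1 array, over the 250 bases before the start and in the direction of transcription, with the motif in capitals. That of Sgk1 lies at chr10:21993640-21993889 (+ strand, GRCm38.p6, RefSeq), with its glucocorticoid element starting at position -188. The start used for Sgk1 lies inside the listed gene, which begins at 21882184, so -188 is not counted from the gene's first base. That of Nfkbia lies at chr12:55492648-55492897 (- strand), with its kappaB site starting at position -29.
Sgk1: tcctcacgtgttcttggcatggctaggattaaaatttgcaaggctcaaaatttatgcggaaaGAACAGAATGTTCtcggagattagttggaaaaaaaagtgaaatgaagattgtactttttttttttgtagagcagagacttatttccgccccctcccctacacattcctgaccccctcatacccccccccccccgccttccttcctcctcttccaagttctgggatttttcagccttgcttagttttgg
Nfkbia: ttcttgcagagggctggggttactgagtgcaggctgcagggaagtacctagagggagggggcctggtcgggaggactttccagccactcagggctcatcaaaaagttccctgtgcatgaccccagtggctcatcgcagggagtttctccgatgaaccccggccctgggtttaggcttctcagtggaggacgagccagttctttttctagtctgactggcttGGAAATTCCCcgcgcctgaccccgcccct

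**Figure D2:**
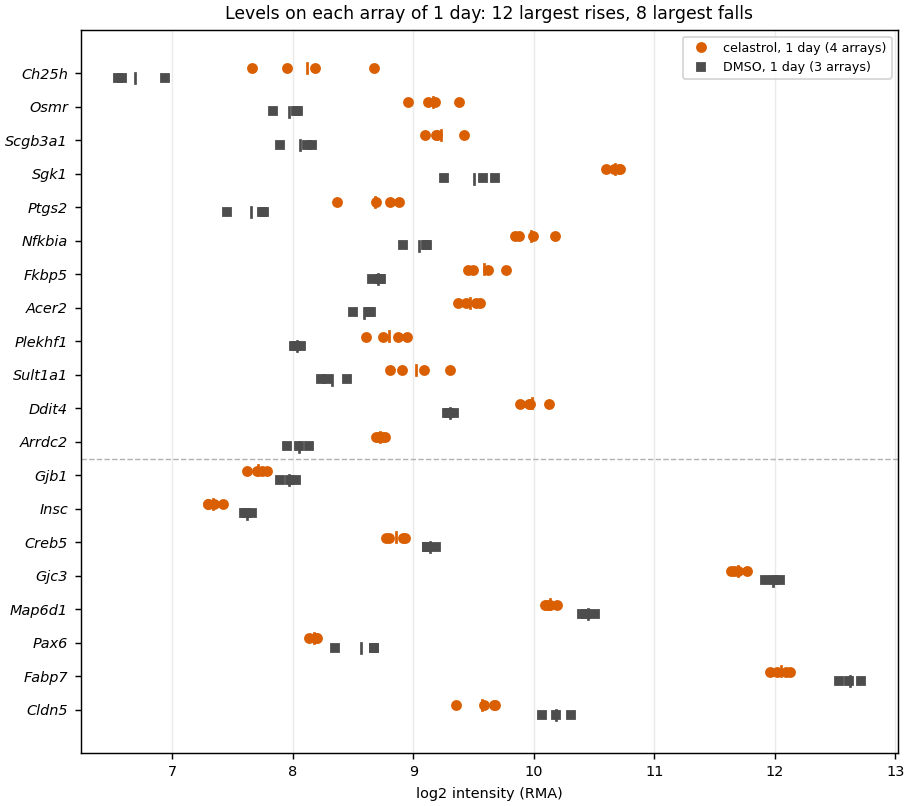
Log2 RMA intensity on each of the 7 arrays of 1 day, for the 12 largest rises (above the dashed line) and the 8 largest falls (below it) among genes past the threshold, with circles for the 4 celastrol arrays, squares for the 3 DMSO arrays and ticks for group means. In every row the circles and squares do not overlap, which the choice of these genes favours, and the widest spread among celastrol arrays is that of Ch25h, at 7.66 to 8.67.

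Single genes of inflammation and of lipid mediators rose. Ch25h, which turns cholesterol into 25-hydroxycholesterol, a signal to immune cells and a brake on sterol synthesis, read 8.18, 8.67, 7.95 and 7.66 with celastrol, against 6.94, 6.55 and 6.58 with DMSO. Its DMSO arrays all lay below the dim threshold of 7.04, so the size of its rise is uncertain, and its celastrol arrays spread from 7.66 to 8.67. Ch25h rose 2.68-fold (1.42 ± 0.233, limma adjusted p = 0.00743), but not past the threshold when DMSO replicate 2 of 1 day was left out (0.0568). Ptgs2, the inducible cyclooxygenase that makes prostaglandins, had celastrol arrays at 8.37, 8.88, 8.81 and 8.69, against 7.46, 7.76 and 7.74 with DMSO. The lowest celastrol array was 0.60 above the highest DMSO array, and the rise was 1.03 ± 0.144 (limma adjusted p = 0.00243). Of 16 tested prostaglandin enzymes and receptors, Ptgs2 alone passed (0.361% of all genes passed upward), 7 were higher (53.8% of all) and the median was -0.0049. On the NF-kB list of 19 tested genes, 14 were higher (53.8% of all genes) and the median was 0.054. Ch25h, Nfkbia and Ptgs2 passed upward (0.361% of all genes did), and none fell past the threshold. Of these, Ch25h had DMSO means of 7.12, 6.69 and 6.59 at 6 h, 1 day and 4 days, near or below the dim threshold. The chemokine gene Ccl7 on that list differed by -0.21 (limma adjusted p = 0.144).
Ch25h: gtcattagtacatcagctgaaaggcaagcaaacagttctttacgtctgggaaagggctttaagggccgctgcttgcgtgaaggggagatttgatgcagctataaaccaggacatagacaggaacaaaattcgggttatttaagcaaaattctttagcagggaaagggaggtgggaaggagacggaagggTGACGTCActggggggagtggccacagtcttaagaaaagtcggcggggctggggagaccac
The Ch25h sequence, shown for its cyclic AMP element, is chr19:34475149-34475398 (- strand, GRCm38.p6, RefSeq), with that element in capitals at position -61.

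Osmr, the receptor subunit through which oncostatin M signals with gp130, rose 2.28-fold, to 8.96, 9.18, 9.38 and 9.12 on the celastrol arrays, against 8.05, 8.03 and 7.84 on the DMSO arrays (1.19 ± 0.219, limma adjusted p = 0.0168). No celastrol array came within 0.91 of a DMSO array, though the call ended without any 1 of the 3 DMSO arrays or celastrol replicate 3 (up to 0.0768). Serpina3n, a protease inhibitor that marks reactive astrocytes, rose by 0.32 ± 0.0698, with 12.48, 12.43, 12.41 and 12.34 on the celastrol arrays, against 12.13, 11.99 and 12.16 on the DMSO arrays (limma adjusted p = 0.0456). That call stayed in only 7 of 20 fits without 1 array (up to 0.333). Other acute phase genes did not pass although their arrays were apart. Lcn2, an iron-carrier binding protein that cells release in inflammation, read 8.18, 8.90, 8.91 and 8.53 with celastrol, against 7.09, 7.12 and 6.86 with DMSO (1.61 ± 0.562, limma adjusted p = 0.379). Its standard error, drawn from all 20 arrays, was more than that of any gene named so far. Lrg1 (0.74) and the receptor Lifr (0.34) had adjusted p of 0.147 and 0.17. On the acute phase and gp130 list, 14 of 17 tested genes were higher (53.8% of all genes), 2 passed upward (0.361% of all), none passed downward, and the median was 0.17. Without any 1 of the 3 DMSO arrays of 1 day, or celastrol replicate 3, 0 of the 17 passed, and without celastrol replicate 1, 2 or 4, 1 did. The Serpina3n promoter, with the other full glucocorticoid element of the set at position -78, is chr12:104406458-104406707 (+ strand, GRCm38.p6, RefSeq). The start used for Serpina3n lies inside the listed gene, which begins at 104406646.
Serpina3n: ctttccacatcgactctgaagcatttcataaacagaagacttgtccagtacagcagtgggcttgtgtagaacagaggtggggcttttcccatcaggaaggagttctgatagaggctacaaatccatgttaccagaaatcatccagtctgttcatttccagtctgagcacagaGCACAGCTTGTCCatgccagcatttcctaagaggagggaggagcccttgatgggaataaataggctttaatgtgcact

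A further 9 genes of varied roles rose. Zfp36, which promotes decay of cytokine messages, rose by 0.39, Trib1, a pseudokinase that drives protein degradation, by 0.47, and Socs2, an inhibitor of cytokine and growth hormone receptors, by 0.28. A second, dimmer probe set of Socs2 differed by 0.17. Fas, a death receptor, rose by 0.45, Apobec3, a cytidine deaminase that restricts retroviruses, by 0.46, and Ada, which clears adenosine, by 0.57. Serpinb6b, an intracellular protease inhibitor, rose by 0.42, Csrnp1, a nuclear protein induced by axin, by 0.30, and Tiparp, a mono-ADP-ribosyltransferase induced through the aryl hydrocarbon receptor, by 0.39. Their limma adjusted p ran from 0.0126 for Trib1 to 0.0442 for Zfp36. Of these 9 calls, those of Zfp36, Apobec3 and Tiparp were the least stable, staying in 4, 9 and 10 of 20 fits without 1 array, and the adjusted p reached 0.196, 0.237 and 0.228. For the other 6 it reached 0.0814 to 0.281. Fas had celastrol arrays at 7.24, 7.39, 7.38 and 7.33, against 6.88, 6.95 and 6.81 with DMSO, so its DMSO level, too, was below the dim threshold.

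Among enzymes of lipid metabolism, Acer2, the Golgi ceramidase that yields sphingosine, read 9.37, 9.52, 9.44 and 9.56 with celastrol, against 8.50, 8.63 and 8.65 with DMSO. It rose 1.84-fold (0.88 ± 0.113, limma adjusted p = 0.000986) with all celastrol arrays above all DMSO arrays, but a second probe set of the gene, close to the dim threshold at a mean of 7.24, differed by -0.14. Of 28 tested ceramide and sphingosine enzymes, Acer2 alone passed (0.361% of all genes passed upward), and 13 were higher (53.8% of all). Cyp4f15, a cytochrome P450 that hydroxylates fatty acids, rose by 0.33 ± 0.0661 (limma adjusted p = 0.0278), with celastrol replicate 3 at 9.46 below the other celastrol arrays at 9.56 to 9.57. Chka, choline kinase, rose by 0.22 (limma adjusted p = 0.0389). The calls of Cyp4f15 and Chka stayed in 14 and 6 of 20 fits without 1 array, reaching 0.185 and 0.243. Of 25 cholesterol and oxysterol genes, only Ch25h passed (0.361% of all genes passed upward). Fatty acid oxidation and fasting genes had no member past the threshold among 16 (0.425% of all genes passed). Ppara was at 0.26 (limma adjusted p = 0.0825) and Txnip at 0.61 (0.0993).

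Genes of the blood vessel wall moved in both directions. In whole tissue, as here, fewer cells of a type and less RNA per cell cannot be told apart. Cldn5, the main claudin that seals brain endothelium, read 9.68, 9.67, 9.58 and 9.35 with celastrol, against 10.31, 10.07 and 10.18 with DMSO. Cldn5 fell 1.53-fold, the only fall past 1.5-fold among the genes that passed (-0.61 ± 0.103, limma adjusted p = 0.00857), and the call ended without DMSO replicate 1 of 1 day (0.0794). Slc2a1, which carries glucose across the blood-brain barrier, rose by 0.48 ± 0.0915, to 12.65, 12.74, 12.91 and 12.69 with celastrol, against 12.26, 12.34 and 12.21 with DMSO (limma adjusted p = 0.0205). Vwf, the von Willebrand factor that endothelium stores and releases for clotting, rose by 0.40, with 8.84, 9.10, 8.86 and 8.81 on the celastrol arrays, against 8.54, 8.57 and 8.39 on the DMSO arrays (limma adjusted p = 0.036). F3, tissue factor, which starts clotting and in brain is made by astrocytes, rose by 0.52 ± 0.0787, to 11.45, 11.45, 11.55 and 11.41, against 10.94, 11.02 and 10.88 with DMSO (limma adjusted p = 0.0042). Podxl, a sialomucin of vessels and some neurons, rose by 0.54 (limma adjusted p = 0.0168). Without 1 array the adjusted p reached 0.124 for Slc2a1, 0.14 for Vwf and 0.0973 for Podxl. Of 22 tested endothelial genes, 2 passed upward (0.361% of all genes) and 1 downward (0.0637% of all), and the median was 0.0086. The mean level of the list lay at 9.42 to 9.59 on the celastrol arrays and 9.46 to 9.50 on the DMSO arrays, and the ranges overlapped. Without the DMSO array that stood apart, only Cldn5 of these 22 passed. Among junction genes, Esam, an endothelial adhesion molecule, differed by 0.32 (limma adjusted p = 0.0726), and Mcam, of mural cells, by -0.28 (0.0807).

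The genes that fell were mostly genes of glia and of neural progenitors. Fabp7, the brain fatty acid binding protein of radial glia, tanycytes and astrocytes, read 12.13, 12.09, 11.96 and 12.02 with celastrol, against 12.53, 12.61 and 12.72 with DMSO. It fell 1.49-fold (-0.57 ± 0.0671, limma adjusted p = 0.000486), and the highest celastrol array was 0.40 below the lowest DMSO array. Pax6, a transcription factor of neural progenitors, was almost constant with celastrol, at 8.18, 8.20, 8.14 and 8.19, against 8.68, 8.68 and 8.35 with DMSO (-0.39 ± 0.068, limma adjusted p = 0.0121). DMSO replicate 3 was the low one of that group, and the Pax6 call ended without DMSO replicate 1 or 2 (up to 0.116). Insc, an adaptor that orients dividing progenitors, read 7.29, 7.30, 7.35 and 7.42 with celastrol, against 7.66, 7.60 and 7.62 with DMSO (-0.28, limma adjusted p = 0.0066, or 0.0581 without DMSO replicate 1). Sox9, which maintains the glial fate, was at -0.24 ± 0.0515 (limma adjusted p = 0.0478), a call that stayed in 5 of 20 fits without 1 array. Of 24 tested radial glia and progenitor genes, these 4 passed downward (0.0637% of all genes), none passed upward, and 8 were higher (53.8% of all), with a median of -0.053. Without DMSO replicate 1 of 1 day 1 of them passed, and without DMSO replicate 2 of 1 day 2 did. Lfng, a sugar transferase that tunes Notch receptors, rose by 0.30 (limma adjusted p = 0.0193, up to 0.153 without 1 array). No member of the WNT, BMP and Notch list of 34 tested genes passed (0.425% of all genes did).

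A pair of connexin genes fell. Gjc3, a connexin of myelinating glia, read 11.77, 11.66, 11.70 and 11.63 with celastrol, against 11.92, 11.99 and 12.05 with DMSO (-0.30 ± 0.0554, limma adjusted p = 0.0192). Gjb1, the connexin of oligodendrocytes and Schwann cells, read 7.79, 7.62, 7.75 and 7.70, against 8.03, 7.98 and 7.90 with DMSO (-0.25 ± 0.053, limma adjusted p = 0.0385). The groups did not overlap in either gene, and without 1 array the adjusted p reached 0.0903 for Gjc3 and 0.273 for Gjb1. Of 11 tested connexins and pannexins these were the members that passed (0.0637% of all genes passed downward). On that list 8 were lower (46.2% of all genes), and the median was -0.052. The other falls were Map6d1, a palmitoylated microtubule-stabilising protein (-0.32, limma adjusted p = 0.0193), and Creb5, a CRE-binding transcription factor (-0.28, limma adjusted p = 0.0267). Their calls ended without any 1 of the 3 DMSO arrays of 1 day, among others, at up to 0.0921 and 0.185. Oligodendrocyte markers other than these connexins did not pass. Over the 18 tested markers, both connexins included, the median difference was -0.14, 14 were lower (46.2% of all genes were), and the mean level was 10.45 to 10.58 on the celastrol arrays, against 10.62 to 10.75 on the DMSO arrays. Opalin, a myelin protein, read 8.85, 8.68, 8.66 and 8.33, against 9.14, 9.09 and 9.42 with DMSO (-0.59 ± 0.181, limma adjusted p = 0.273), and Sox10, the factor of the oligodendrocyte lineage, differed by -0.27 (0.0858).

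Few genes of neurons passed. Gpr6, an orphan receptor that signals constantly through cyclic AMP, read 9.85, 9.94, 10.10 and 9.93 with celastrol, against 9.33, 9.38 and 9.27 with DMSO. It rose 1.54-fold (0.63 ± 0.0938, limma adjusted p = 0.00406). Mc4r, the satiety receptor, read 8.84, 8.94, 8.99 and 9.02, against 8.72, 8.72 and 8.62 with DMSO, a rise of 0.26 ± 0.0534 (limma adjusted p = 0.0353). Its call rested on a gap of 0.13 between the closest arrays and ended without any 1 of the 3 DMSO arrays or celastrol replicates 2, 3 and 4, at up to 0.129. Kcnn2, a calcium-activated potassium channel that follows spikes with hyperpolarisation, rose by 0.29 (limma adjusted p = 0.0192, up to 0.153 without 1 array). Of 34 tested orphan and peptide receptors, Gpr6 and Mc4r passed (0.361% of all genes passed upward), and 18 were higher (53.8% of all). The 20 tested satiety genes, Mc4r among them, had a median of -0.018 and no other member passed. Of 16 orexigenic genes none passed (0.425% of all genes did). Pomc read 8.69, 8.65, 9.07 and 8.73, against 9.10, 8.65 and 9.02 with DMSO, and Npy differed by 0.07. The leptin receptor Lepr read 8.25, 8.15, 8.13 and 8.24, against 7.84, 8.04 and 8.17 with DMSO (0.17 ± 0.064, limma adjusted p = 0.416), and arrays of the groups overlapped for Lepr, Pomc and Npy. Among 18 leptin signalling genes none passed (0.425% of all genes did), 14 were higher (53.8% of all) and the median was 0.070. For 5 of the 18 every celastrol array lay above every DMSO array (4.69% of all genes). The mean of the list was 9.62 to 9.66 on the celastrol arrays and 9.55 to 9.57 on the DMSO arrays, without overlap. Trh, the peptide that starts the thyroid axis, differed by 0.30 (limma adjusted p = 0.158).

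The Gpr6 promoter carried the cyclic AMP element at position -78. It lies at chr10:41072291-41072540 (- strand, GRCm38.p6, RefSeq) and is shown because Gpr6 signals through the same second messenger.
Gpr6: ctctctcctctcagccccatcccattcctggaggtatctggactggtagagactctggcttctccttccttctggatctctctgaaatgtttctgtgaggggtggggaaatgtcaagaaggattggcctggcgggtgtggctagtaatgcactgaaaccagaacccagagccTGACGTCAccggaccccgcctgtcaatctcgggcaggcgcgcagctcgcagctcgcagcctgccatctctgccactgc

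The remaining rises had no common role. Scgb3a1, a small secreted secretoglobin, read 9.42, 9.20, 9.19 and 9.10 with celastrol, against 8.16, 8.12 and 7.90 with DMSO, a 2.25-fold rise whose groups were 0.94 apart at their closest. Its standard error over all 20 arrays was large, so the adjusted p was 0.0444 in limma and the call stayed in 6 of 20 fits without 1 array (up to 0.157). Dio2, which activates thyroid hormone in tanycytes and astrocytes, rose by 0.50 ± 0.106, with celastrol replicate 3 at 8.78 above the other celastrol arrays at 8.50 to 8.54 and DMSO arrays at 8.07 to 8.10 (limma adjusted p = 0.0423). That call stayed in 4 of 20 fits (up to 0.185). Dio2 was the 1 gene of 19 tested ependymal and tanycyte markers that passed (0.361% of all genes passed upward), and the list median was 0.078. Usp2, a deubiquitinase that acts on clock proteins, rose by 0.38 (limma adjusted p = 0.00406), and Usp51, a histone deubiquitinase, by 0.43 (0.036). Srarp, a regulator of steroid receptors, rose by 0.58 (0.0033), Klf13, a zinc finger factor, by 0.35 (0.00911), and Rhou, a GTPase of the cytoskeleton, by 0.46 (0.0168). Fam43a (0.36), Cables1, a partner of cyclin-dependent kinases (0.26), Cdc37l1, a co-chaperone of Hsp90 (0.20), and Rsrp1, an arginine and serine rich protein (0.26), rose too. Without 1 array the adjusted p of Usp51 reached 0.27, that of Klf13 0.0669, that of Rhou 0.0814 and that of Cdc37l1 0.273, those of Fam43a, Cables1 and Rsrp1 0.145, 0.13 and 0.338.

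Other stress programmes held no gene past the threshold. None of 21 heat shock chaperones, 28 genes of the unfolded protein response or 19 NRF2 targets passed, and their medians were -0.027, -0.014 and 0.028. Only 0.425% of all genes passed, so most lists this short would hold none, and nothing is read from the absence. Of the heat shock chaperones 15 were lower (46.2% of all genes). Arrays did not overlap for 3 of them in the lower direction (3.13% of all) and for 1 in the higher (4.69%). Hspa5, the main chaperone of the endoplasmic reticulum, read 12.41, 12.43, 12.53 and 12.41 with celastrol, against 12.56, 12.43 and 12.43 with DMSO, and Hmox1, the heme oxygenase induced by oxidative stress, differed by 0.0021. Neither immediate early genes (21 tested) nor interferon-stimulated genes (14 tested) had a member that passed, beside the same 0.425% of all genes. Per1 was the 1 of 19 clock genes that passed (0.361% of all genes passed upward), and Ciart, a repressor of the clock, differed by 0.33 (limma adjusted p = 0.0825).

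**Figure D3:**
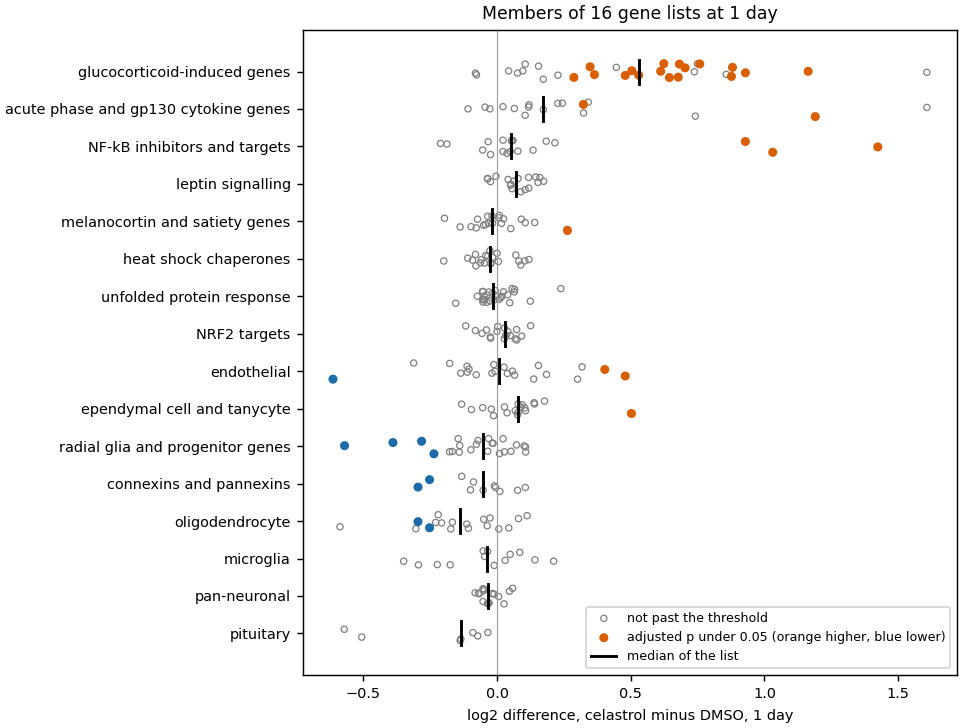
Log2 difference between celastrol and DMSO arrays of 1 day for each tested member of 16 gene lists, with filled points past an adjusted p of 0.05 and a bar at each list's median. The glucocorticoid list is shifted as a block, with a median of 0.53, and the other medians lie between -0.14 (oligodendrocyte markers) and 0.17 (acute phase genes).

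Markers of other cell types were read on the same arrays. The mean over 16 astrocyte markers was 11.55 to 11.58 on the celastrol arrays and 11.59 to 11.63 on the DMSO arrays, and Aqp4, the water channel of astrocyte endfeet, differed by -0.20 (limma adjusted p = 0.133). Over 13 tested microglial markers it was 9.24 to 9.36 and 9.33 to 9.40, and P2ry13, a purine receptor of microglia, differed by -0.35 (limma adjusted p = 0.101). The ependymal and tanycyte mean was 8.63 to 8.65, against 8.52 to 8.61. Of these 3 lists, the microglial ranges overlapped and the astrocyte and ependymal ranges did not, by narrow margins. The nearest celastrol and DMSO means were 11.585 and 11.586 for the astrocyte list, and 8.632 and 8.609 for the ependymal list. The 16 pan-neuronal markers had a median difference of -0.034. Of 19 markers of neutrophils and blood leukocytes on the table, 11 were dim, and the 8 tested averaged 7.49 to 7.64 and 7.29 to 7.51, with Lcn2 among them. All 7 tested pituitary markers were lower, with Gh at 7.52 to 7.71 on the celastrol arrays and 7.89, 7.98 and 8.66 on the DMSO arrays, the last being the array that stood apart. Means of the list were 7.89 to 8.40 and 8.10 to 8.58, and overlapped. Of 13 tested meningeal fibroblast markers 10 were higher (53.8% of all genes), 0 passed (0.425% of all) and the median was 0.13. Means of that list were 8.18 to 9.03 on the celastrol arrays and 8.16 to 8.37 on the DMSO arrays, which overlapped. The meningeal gene Mgp, a matrix protein, read 8.29, 9.09, 8.56 and 7.91 with celastrol, against 7.94, 7.80 and 7.65 with DMSO (0.67 ± 0.178, limma adjusted p = 0.144). The part of these levels in the calls described here was not tested.

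The 60 genes were next read on the arrays of the other times. Those arrays gave no level to the comparison at 1 day but entered its variance estimate, and leaving 1 of them out moved the 60 calls to between 45 (without DMSO replicate 3 of 4 days) and 85 (without celastrol replicate 3 of 4 days). At 4 days, with 3 celastrol and 3 DMSO arrays, 51 of 51 genes that rose at 1 day were again higher, against 54.4% of all genes. Of the 51, 41 had an unadjusted limma p under 0.05 in that direction, against 4.25% of all genes (6.53% in either direction), and 33 had arrays that did not overlap, against 8.89%. Of the 9 that fell, 8 were lower again (45.6% of all genes), 7 of them at an unadjusted p under 0.05 (2.28%) and 7 without overlap of the arrays (5.47%). The median difference at 4 days was 0.28 for the first set and -0.24 for the second. Of the 60, 6 passed the adjusted threshold at 4 days, where 0.0637% of all genes did. They were Sgk1 (0.78), Acer2 (0.68), Cyp4f15 (0.40), Pax6 (-0.53), Gjc3 (-0.33) and Gjb1 (-0.31). The 60 were picked with the variance estimate that these arrays entered, which favours genes with little spread on all arrays. The choice can therefore raise the counts by p and by overlap at 4 days and at 6 h, and by how much was not tested. When any 1 array was left out, the 41 became 30 to 45 and the 7 became 6 to 8. The lowest counts were 30 without celastrol replicate 3 of 4 days and 31 without DMSO replicate 1 of 4 days.

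At 6 h the same genes gave fewer such calls. Of the 51, 39 were higher, against 41.7% of all genes, but 4 of them reached an unadjusted p under 0.05, against 2.5% of all, and the median was 0.056. A further 2 were lower at that threshold, against 5.05% of all. Arrays did not overlap for 2 of the 51 in the higher direction (1.91% of all) and for 1 of the 9 in the lower one (4.44%). These counts turned on single DMSO arrays of 6 h. Without replicate 1, 29 of the 51 were higher and 0 reached that p, without replicate 2, 41 were higher and 18 reached it, and without replicate 3, 38 were higher and 1 reached it. Of the 9, 5 were lower, against 58.3% of all genes, and the median was -0.031. No gene passed the adjusted threshold at 6 h, where 7.55% of all genes had an unadjusted limma p under 0.05. All 60 differences were larger in size at 1 day than at 6 h, and 56 of 60 were larger than at 4 days. Since the genes were picked for their difference at 1 day, this direction is favoured by the choice. The change of the difference between times was tested for each gene. Between 1 day and 6 h, 54 of the 60 had an unadjusted p under 0.05 (10.3% of all genes), and between 1 day and 4 days 9 did (2.47%). The difference at 1 day, for which the 60 were picked, is a term of both tests. The choice therefore raises these counts too, and nothing is read from them. After adjustment over all genes 1 gene, Fabp7, passed in each of these tests (0.00708% of all).

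**Figure D4:**
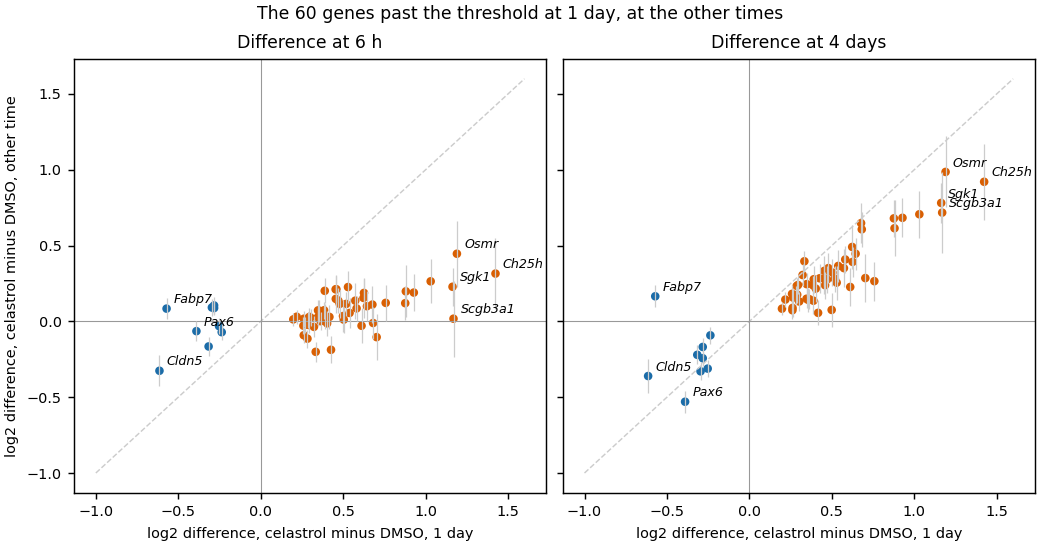
Log2 differences between celastrol and DMSO arrays at 6 h (left) and 4 days (right) on the y axes, against those at 1 day on the x axes, for the 60 genes past the threshold at 1 day, with standard errors as grey bars and a dashed line of equal differences. At 4 days all 51 orange points lie above 0, and Fabp7 is the 1 blue point above 0.

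Of the 9 genes that fell, Fabp7 was the 1 whose difference was above 0 at 4 days (0.17). It read 12.82, 12.99, 12.77 and 12.88 with celastrol at 6 h, against 12.73, 12.68 and 12.93 with DMSO. At 4 days it read 12.60, 12.78 and 12.73 with celastrol, against 12.51, 12.61 and 12.50 with DMSO, so the celastrol arrays of 1 day, at 11.96 to 12.13, were below all other 16 arrays of the series. From 6 h, the celastrol minus DMSO difference changed by -0.66 ± 0.095 (limma adjusted p = 0.0201), and the change from 4 days was -0.74 ± 0.098 (limma adjusted p = 0.00631). The test against 6 h missed the threshold in 8 of the 20 fits without 1 array, at 0.0520 to 0.0974, and that against 4 days passed in all 20. Pax6 took the other course, with means of 8.41, 8.18 and 7.99 at 6 h, 1 day and 4 days with celastrol, against 8.47, 8.57 and 8.52 with DMSO. Its change between 1 day and 4 days did not pass. Other genes with the smallest p in the test against 6 h were Insc (-0.37, limma adjusted p = 0.0793), Cyp4f15 (0.53, 0.0793), Sgk1 (0.94, 0.147), Gjc3 (-0.39) and Creb5 (-0.39). Against 4 days the next was Csf3r, a cytokine receptor of neutrophils, at -0.35 (limma adjusted p = 0.541).

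Levels in the vehicle arrays also moved with time in these genes. For Sgk1 the celastrol means were 10.67, 10.67 and 10.54 at 6 h, 1 day and 4 days, while the DMSO means were 10.45, 9.51 and 9.76. Nfkbia had celastrol means of 9.89, 9.97 and 9.90, and DMSO means of 9.70, 9.05 and 9.21. In both genes the celastrol level was nearly the same at the 3 times and the DMSO level was high at 6 h. Over the 51 genes this was measured between 6 h and 4 days, so that arrays of 1 day gave no level to it. Arrays of 1 day did enter the variance estimate behind its p-values. The 51 were picked with that same estimate, so the choice can raise the count of genes under a p threshold. DMSO at 6 h was above DMSO at 4 days in 50 of the 51 (98%), against 52.7% of all genes, and in 32 (62.7%) at an unadjusted limma p under 0.05, against 5.78% of all genes. The median DMSO difference was 0.22, and the median celastrol difference between the same times was -0.010. Without DMSO replicate 2 of 6 h, 15 of the 51 passed that unadjusted threshold with a median of 0.15, and without DMSO replicate 1 of 4 days 18 did, while 49 kept the direction in each case. Without DMSO replicate 3 of 6 h, which stood apart, 33 did. For 8 of the 9 genes that fell, DMSO at 6 h was below DMSO at 4 days. The labels give neither the clock time of collection nor the time between the last injection and collection, and their part was not tested.

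**Figure D5:**
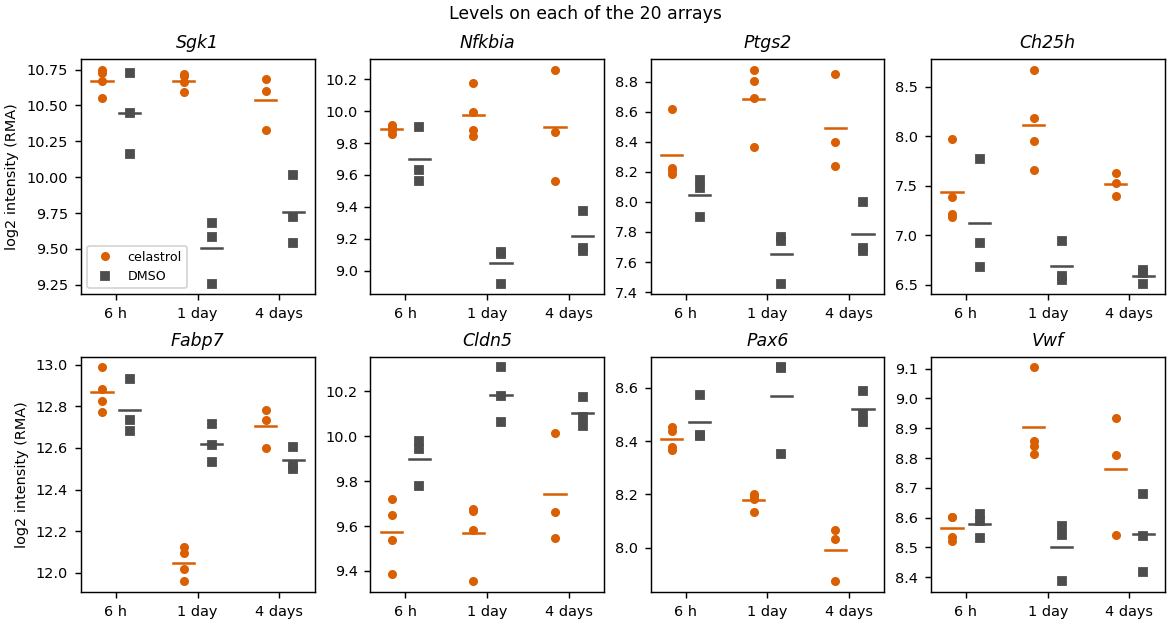
Log2 RMA intensity of 8 genes on all 20 arrays by time, with orange circles for celastrol, grey squares for DMSO and bars at group means. DMSO levels of Sgk1 and Nfkbia are higher at 6 h than at 1 day while celastrol levels stay near 10.67 and 9.97, and Fabp7 is low in the celastrol arrays of 1 day.

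Because vehicle levels differed by time, the celastrol arrays of 1 day were also set against all 9 vehicle arrays. In 14 of the 51 genes that rose (27.5%) every celastrol array of 1 day lay above all 9 vehicle arrays, against 0.46% of all genes, and in 4 of the 9 that fell (44.4%) every one lay below, against 0.226%. The genes had been picked for their difference from 3 of these 9 arrays, so the choice itself raises these shares and nothing is read from them. The genes that fell were Fabp7, Cldn5, Pax6 and Map6d1. The named genes that rose were Ptgs2, Acer2, Srarp, Gpr6, F3, Klf13, Rhou, Kcnn2, Fas, Vwf, Chka, Zfp36 and Serpina3n. Sgk1 was not among them, since a DMSO array of 6 h reached 10.73. With the 9 vehicle arrays as 1 group, 47 genes passed, 26 of them among the 60, and the glucocorticoid list had 5 members past the threshold rather than 17. Among those that no longer passed were Sgk1, Ddit4, Plekhf1, Bcl6, Rasd1, Per1, Arrdc2, Klf9, Tsc22d3 and Slc2a1.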

How the data were processed

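Hypothalamic RNA was measured on 20 Affymetrix Mouse Gene 1.0 ST arrays. The deposited values are log2 intensities summarised and normalised by the authors with RMA, per the submitters' processing notes; the RMA version is not stated there. The table holds 23492 probe sets, of which 20228 have 1 gene symbol in the platform annotation, 1399 have several and 1865 have none. For each gene the brightest probe set was used, and genes under the 25th percentile of intensity (7.04) were left out. An intensity gives no read depth, so precision rests on how many arrays a group has, and the median standard error at 1 day was 0.0605 log2 units. RMA is known to compress low values, which shrinks differences of dim genes.

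A linear model with 6 groups was fitted to all 20 arrays with limma 3.58.1 in R 4.3.3 (14 residual degrees of freedom, 4.92 prior). Contrasts were two-sided and adjusted over all 14129 genes by the Benjamini-Hochberg method, with a threshold of 0.05. The script was tested on simulated data. Every gene past the threshold at 1 day is named, except 1 predicted gene, together with members of the gene lists and the genes of smallest p in the tests between times. The genes and lists were chosen with earlier results of these data known. Replicate numbers are shared by groups, but deviations of same-numbered celastrol and DMSO arrays of 1 day correlated at -0.286, -0.00627 and -0.288. The numbers were therefore not taken as pairs, and correlations across times were not computed. P-values measure the spread between these arrays. Alternatives changed the filter, probe set rule, scaling, variance model, vehicle group, threshold and arrays included. Promoters are from RefSeq tables (GRCm38.p6). Agrp and Il1r1 are not analysed here.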

Additional observations from a re-analysis of the deposited data

Results flagged for a closer look

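Among the 4 celastrol arrays of 1 day, 1 array lay far from the other 3 in 4 of 87 genes examined. Chance gives about 1 in 20, so this count is about what chance alone would give. In Tgm2, replicate 1 was at 9.135 and the others at 9.374 to 9.389, and the gap took 0.943 of the range. In Cyp4f15, replicate 3 was at 9.459 and the others at 9.559 to 9.573, with a gap of 0.875 of the range. In Vwf, replicate 2 was at 9.104 and the others at 8.815 to 8.857, with a gap of 0.854. In Dio2, replicate 3 was at 8.777 and the others at 8.495 to 8.54, with a gap of 0.842.

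For Fabp7 the difference between celastrol and DMSO at 1 day departed from that at 6 h by -0.655 (limma adjusted p = 0.0201) and from that at 4 days by -0.736 (limma adjusted p = 0.00631). The celastrol arrays lay below the DMSO arrays at 1 day in 4 of 4 arrays.

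Probe sets without a gene symbol were not part of the report. Of 2204 probe sets with no or several symbols above the dim threshold, 2 passed at 1 day, both higher with celastrol, by 0.568 (limma adjusted p = 0.000548) and 1.1 (limma adjusted p = 0.00439).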

How the results depend on the processing

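At 1 day 60 genes passed. Of the 59 named genes that passed, 0 changed sign under any alternative run, and named genes that did not pass were not all followed. The count was 41 without the filter on dim genes, 51 with a filter at the 50th percentile, 69 from the 7 arrays of 1 day alone, 78 with an intensity trend, 47 with all 9 vehicle arrays as 1 group, 196 with array weights and 32 with the replicate block. The share of higher genes among those that passed was 85%, against 67.9% after centring each array, 70.3% after a further quantile step, 63.8% with array weights and 65% without both arrays that stood apart, an alternative chosen after seeing the data, under which 40 genes passed. Leaving out 1 array gave 18 (without DMSO replicate 1 of 1 day) to 85 (without celastrol replicate 3 of 4 days), and 19, 23, 30 and 26 without DMSO replicates 2 and 3 and celastrol replicates 2 and 3 of 1 day. For the test between 1 day and 6 h, which 1 gene passed, the count was 2 with the filter at the 50th percentile, 2 with array weights, 4 with an intensity trend, 3 at a threshold of 0.1, 0 with the replicate block and 0 to 3 without 1 array. For the test between 1 day and 4 days, which 1 gene passed, it was 0 with the replicate block. That block leaves 6 residual degrees of freedom. It joined celastrol and DMSO arrays of the same time and number, and 24 of 59 named calls stayed under it. The labels give no other link between such arrays, and only those of 1 day were correlated, so a shared source was not tested at the other times. The cause of these shifts was not tested. Of the calls at 1 day, 12 of 59 stayed in all fits without 1 array. With 3 or 4 arrays a group, a difference near the median standard error of 0.0605 could not be told from 0.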
